A study of Mus musculus with 192 samples.

Results

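The genes described here are 10 parts of the protein folding and quality control system of the endoplasmic reticulum (ER), the compartment in which secreted and membrane proteins fold. They are the chaperones Hspa5, Hsp90b1, Calr and Canx, the disulfide isomerases Pdia3, Pdia4 and Pdia6, the co-chaperone Dnajb9, the degradation factor Herpud1 and the transcription factor Xbp1. They were taken by gene symbol, and all 10 were present among the 23481 genes of the count table. A filter on low counts left 4720 genes for testing, 9 of the 10 among them; Dnajb9 did not pass it.

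RNA was sequenced from dendritic cells that had been grown from the marrow of female C57BL/6J mice aged 6 to 8 weeks in medium with GM-CSF. The cells, 100000 in a well, were left for 6 hours with agents that trigger pattern recognition receptors, proteins that sense molecules of microbes and viruses. The 7 ligands were PAM, LPS (lipopolysaccharide), HMW, Zymosan (given in the labels as depleted), SeV, cGAMP (3',3'-cGAMP, a cyclic dinucleotide) and CpGB, and each is named here as in the labels, which give no doses. The 64 groups of 3 libraries were a control named Ctrl, the 7 single ligands, all 21 pairs and all 35 triplets. Every group shared the growth factor and the culture, and nothing in the labels says whether the 3 libraries of a group came from separate animals or cultures, so p-values measure the spread between these libraries, which may be technical.

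Proteins that misfold in the ER are sensed by the unfolded protein response, whose sensors Ire1 (gene Ern1), Perk (gene Eif2ak3) and Atf6 raise the transcription of chaperones, of isomerases and of factors that send misfolded proteins out for degradation. Hspa5, also called BiP, is the main Hsp70-type chaperone of the ER and holds the sensors inactive, and Xbp1 is the transcription factor that Ire1 switches on by splicing its mRNA. In dendritic cells the Ire1 and Xbp1 branch is known to be active at rest, and Calr, Canx and Pdia3 also serve the folding and peptide loading of MHC class I molecules. A gene count does not tell spliced from unspliced Xbp1 mRNA.

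The ER stress response element (ERSE) is the promoter sequence through which Atf6 and Xbp1 act on many ER chaperone genes, and the windows that hold it are printed because they are shared by members that behaved differently in the data. RefSeq promoter windows (GRCm38.p6, 250 bases before to 50 bases after the gene start) were matched by symbol for 10 of 10 members. Both strands were searched for exact matches to ERSE (CCAAT, 9 bases of any kind, CCACG), ERSE-II (ATTGG, 1 base of any kind, CCACG) and TGACGTGG (a UPRE core, whose reverse complement shares CCACG with the other motifs). Each line runs 5′ to 3′ on the strand of the gene, with the match in capitals and 5 bases on each side. A match that reads CGTGG first lies on the opposite strand.
Hspa5: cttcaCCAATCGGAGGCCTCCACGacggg
Hsp90b1, farther match: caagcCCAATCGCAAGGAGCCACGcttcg
Hsp90b1, nearer match: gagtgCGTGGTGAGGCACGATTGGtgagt
Pdia6: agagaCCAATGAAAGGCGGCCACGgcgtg
Calr: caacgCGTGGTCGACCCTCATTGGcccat
Canx: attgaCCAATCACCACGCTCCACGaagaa
Herpud1: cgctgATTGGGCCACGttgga

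An exact ERSE was present in 5 of the 10 member promoters, against 39 of all 32851 promoter windows (0.119%). Herpud1 held ERSE-II, found in 12 of all windows (0.0365%), and 0 of the 10 members held the UPRE core, found in 222 windows (0.676%). These motifs are known from genes of this kind, so the shares describe the windows and are no test. No exact match lay in the windows of Pdia3, Pdia4, Dnajb9 or Xbp1. The printed Hspa5 window lies at chr2:34772020-34772048 on the plus strand, which GENCODE M21 places inside the gene, since it starts Hspa5 at 34771970. The Hsp90b1 windows lie at chr10:86705633-86705661 and chr10:86705528-86705556 on the minus strand, and that of Pdia6 at chr12:17266486-17266514 on the plus strand. Those of Calr (chr8:84847070-84847098) and Canx (chr11:50325795-50325823) lie on the minus strand, and that of Herpud1 (chr8:94386372-94386392) on the plus strand. All 6 of these windows lie upstream of the annotated gene.

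Total UMI (unique molecular identifier) counts ran from 46564 to 610234 per library with a median of 171616, and the 3 Ctrl libraries, at 61823 to 89530, were shallow. Hspa5 was therefore read from 149 UMIs per library on average, Hsp90b1, Calr and Canx from 75.8 to 77.1, Pdia6 from 43.7, Xbp1 from 28.8 and Pdia3 from 12.7. Herpud1 (5.81), Pdia4 (3.97) and Dnajb9 (2.05) rested on few molecules, and 9, 5 and 39 of all libraries held none of them. Dendritic cell markers were present in Ctrl (H2-Aa 2126 CPM, Itgax 421, Cd209a 0), as were macrophage markers (Csf1r 1718 CPM, C1qb 774.8). CPM are UMI counts scaled to a common library size with TMM factors. Over groups the summed level of the 14 dendritic cell markers ran from 5339 CPM in Ctrl to 8769, that of 7 macrophage markers from 1612 in LPS + cGAMP + CpGB to 3519 in HMW + SeV (3144 to 3216 in the Ctrl libraries, median 2052 over groups) and that of 7 neutrophil markers from 519.9 in HMW + SeV to 961 with LPS. Across matched groups that differ by 1 ligand, the macrophage sum was lower with LPS, cGAMP, PAM and Zymosan in 20 of 22 comparisons each and with CpGB in 19, but with SeV in 9 and with HMW in 14. The dendritic sum was higher with LPS in 21 of 22 and with cGAMP in 19. Genes of that list did not move together. Cd86 was at 35.5 CPM and Itgax at 421 in Ctrl, yet they held 8926 and 10700 UMIs over all libraries. The sums may thus follow ligand effects on the marker genes themselves, which was not tested. Plasma cells are rich in ER chaperones; the plasma and B cell markers Cd79a, Cd79b, Ms4a1, Igj, Mzb1 and Derl3 were all at 0 in Ctrl, with 6 to 17 UMIs each over all libraries, and the list's level (51.0 to 276.8 CPM, highest with Zymosan) came mainly from Sdc1. The plasma and B cell sum was lower with LPS in 20 of 22 comparisons and with cGAMP in 16. It was higher with Zymosan in 20, with PAM in 17 and with CpGB in 15. The 4 erythroid markers were at 0 throughout. The part of shifts between these cell types in the results was not tested, and in bulk RNA fewer cells of a type and less RNA per cell cannot be told apart.

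Hspa5 was higher with Zymosan and with cGAMP alone. In Ctrl it stood at 692.5, 636.1 and 633.7 CPM, with Zymosan at 1067, 1273 and 1120 CPM and with cGAMP at 926.1, 1034 and 785.6 CPM. All 3 libraries of either ligand lay above all 3 Ctrl libraries. The log2 fold change was 0.83 (SE 0.15, edgeR adjusted p = 4.57e-06) with Zymosan and 0.49 (SE 0.15, edgeR adjusted p = 0.00958) with cGAMP, or 1.77-fold and 1.40-fold; the background of genes called higher was 6.23% and 13.5%. The cGAMP call was lost in 5 of 16 alternatives (RLE factors, library size alone, DESeq2, thinned counts and without replicate 2 of all groups), with log2 values of 0.19 to 0.70 over the 16, while the Zymosan call held in all 16 alternatives. With PAM Hspa5 was at 524.9, 603.3 and 527.8 CPM, all below Ctrl, but the difference did not pass the test (log2 -0.24, SE 0.16, edgeR adjusted p = 0.356); with library size alone it was -0.42 and did (edgeR adjusted p = 0.0394). Hspa5 with SeV (log2 0.28, edgeR adjusted p = 0.213) and with CpGB (log2 0.32, edgeR adjusted p = 0.132) did not pass either, and both overlapped Ctrl. Each passed without its replicate 1, at 0.48 (edgeR adjusted p = 0.0301) with SeV and 0.53 (edgeR adjusted p = 0.00848) with CpGB, and also without replicate 1 of all groups, at 0.57 for both.

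The mean levels of Hspa5 in the single-ligand groups ordered as Zymosan (1154 CPM, SD 107.1, n = 3), cGAMP (915.3), CpGB (799.4), HMW (794.6), SeV (782.1), Ctrl (654.1), LPS (653.7) and PAM (552). PAM was lower than each of HMW, Zymosan, SeV, cGAMP and CpGB, and Zymosan was higher than each of the other 6 ligands. Of these calls, those of Hspa5 for Zymosan over PAM and over LPS held in all 30 alternatives. PAM against SeV and against CpGB was lost with thinning and without replicate 3 of all groups, with differences down to -0.19 and -0.31 and adjusted p up to 0.578 and 0.494, PAM against HMW without replicate 3, and PAM against cGAMP with thinning. Zymosan over HMW was lost with thinning and without replicate 2, Zymosan over SeV without Zymosan replicate 2, and Zymosan over CpGB without replicate 2, Zymosan replicate 2 or CpGB replicate 1. The gap between the neighbours Zymosan and cGAMP was small (log2 0.34, SE 0.13, edgeR adjusted p = 0.0373) and its call was lost in 25 of 30 alternatives, each of them with a value above 0. No other pair of neighbours in this order passed the test. Over the 21 comparisons between single ligands, members were called higher 21 times and lower 25 times in 189 tests, against a background of 8.85% and 9.99% of genes.

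Herpud1 codes for an ER membrane protein that helps assemble the machinery for degrading misfolded proteins, and it had the largest ratio of highest to lowest group mean among the 9 tested genes. Its Ctrl libraries stood at 83.1, 99.8 and 48.0 CPM. With LPS they stood at 14.9, 11.1 and 22.4 CPM and with cGAMP at 9.17, 11.7 and 12.3 CPM, all below every Ctrl library. Herpud1 fell by 2.11 on the log2 scale with LPS (SE 0.64, edgeR adjusted p = 0.00556) and by 2.65 with cGAMP (SE 0.72, edgeR adjusted p = 0.00248), where 12.9% and 8.16% of all genes were called lower. Without replicate 2 of all groups both calls were lost (log2 -1.56, edgeR adjusted p = 0.16 with LPS and log2 -2.35, edgeR adjusted p = 0.0799 with cGAMP), and without Ctrl replicate 2 that with LPS was lost (log2 -1.80, edgeR adjusted p = 0.0609). The counts behind these values are small: 19 UMIs summed over the Ctrl libraries, 9 with LPS and 5 with cGAMP. The pooled ratio to Ctrl was 0.226 with LPS (95% exact interval 0.0899 to 0.524, for counting error only) and 0.152 with cGAMP (0.0445 to 0.422).

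SeV libraries held Herpud1 at 9.56, 38.3 and 28.1 CPM, again below all Ctrl libraries. That difference did not pass the test (log2 -1.46, SE 0.61, edgeR adjusted p = 0.0779); with library size alone it was -1.65 and did (edgeR adjusted p = 0.0383). With PAM, HMW, Zymosan and CpGB the level was 68.2 to 97.6 CPM on average and overlapped Ctrl. Between single ligands, Herpud1 was lower with LPS, SeV and cGAMP than with each of PAM, HMW, Zymosan and CpGB in all 12 such comparisons, the largest being HMW over cGAMP (log2 2.96, SE 0.61, edgeR adjusted p = 3.59e-05). Thinning could not be among the alternatives, since thinned Herpud1 counts did not pass the filter. The 4 differences of cGAMP and those of LPS against HMW and Zymosan held in all 29 alternatives that remained. Those of SeV were less firm: against PAM (log2 1.35) the call held in 9 and against CpGB (log2 -1.44) in 13 of 29, and against HMW and Zymosan it was lost without SeV replicate 1, against HMW also without replicate 1 of all groups and against Zymosan also without replicate 3 of all groups or of Zymosan. LPS against PAM was lost without replicate 2 of all groups, and LPS against CpGB in settings that left out replicate 2 or 3, with adjusted p up to 0.0781. Each of these differences kept its direction throughout.

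Among the remaining chaperones and isomerases, the single-ligand calls were those with LPS. Hsp90b1, the Hsp90 of the ER, was at 512.5, 523.8 and 489.7 CPM in Ctrl and at 297.8, 349.2 and 344.5 CPM with LPS, a fall of 0.61 on the log2 scale (SE 0.19, edgeR adjusted p = 0.00689). Calr, a lectin chaperone that binds glycoproteins and stores calcium, was at 498.6, 498.9 and 470.5 CPM in Ctrl and at 282.9, 376.9 and 326.6 CPM with LPS. Pdia6, a disulfide isomerase, was at 318.6, 311.8 and 297.6 CPM in Ctrl and at 230.8, 205.1 and 170 CPM with LPS. In each of the 3 genes no LPS library reached the lowest Ctrl library. Calr fell by 0.56 (SE 0.21, edgeR adjusted p = 0.0306) and Pdia6 by 0.64 (SE 0.22, edgeR adjusted p = 0.019). The call of Hsp90b1 was lost in 5 of 16 alternatives (values -0.95 to -0.36), among them the omission of Ctrl replicate 2 or LPS replicate 1. The calls of Calr and Pdia6 were each lost in 10 of 16 alternatives, among them every omission of a replicate number or of a Ctrl library, with values of -1.78 to -0.31 and -0.93 to -0.38. With cGAMP the libraries of Hsp90b1, Calr and Pdia6 also lay below all Ctrl libraries, without passing the test (log2 -0.23, -0.37 and -0.32, edgeR adjusted p = 0.411, 0.208 and 0.31). Calr passed with library size alone (-0.61, edgeR adjusted p = 0.023), after thinning (-0.92, edgeR adjusted p = 0.00691) and with the cGAMP and Ctrl libraries alone (-0.43, edgeR adjusted p = 0.0474), and Pdia6 in the first and second of these (-0.57 and -0.97, edgeR adjusted p = 0.0425 and 0.0196).

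Xbp1 was at 249.3, 149.7 and 249.6 CPM in Ctrl and at 148.9, 110.8 and 129.8 CPM with LPS, where it fell by 0.76 (SE 0.27, edgeR adjusted p = 0.0226), a call held in 8 of 16 alternatives. Its highest LPS library lay just under its lowest Ctrl library. Canx, the membrane-bound partner of Calr, and Pdia3, which works with both, passed no test against Ctrl in a single-ligand group, and neither did Pdia4. Canx kept to a mean of 466.6 to 557.6 CPM over these 8 groups. Dnajb9, a co-chaperone of Hspa5 and a known target of Xbp1, had 5 UMIs over the Ctrl libraries and 3 to 14 in each single-ligand group, which gives no usable order. In all, the 63 member tests with single ligands gave 2 higher and 6 lower calls, against a background of 10.3% and 6.84%. With LPS 5 of 9 members were lower against 12.9%, and the median member change was -0.56 against -0.06 over all genes. Without replicate 2 of all groups, 0 lower calls remained.

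**Figure D1:**
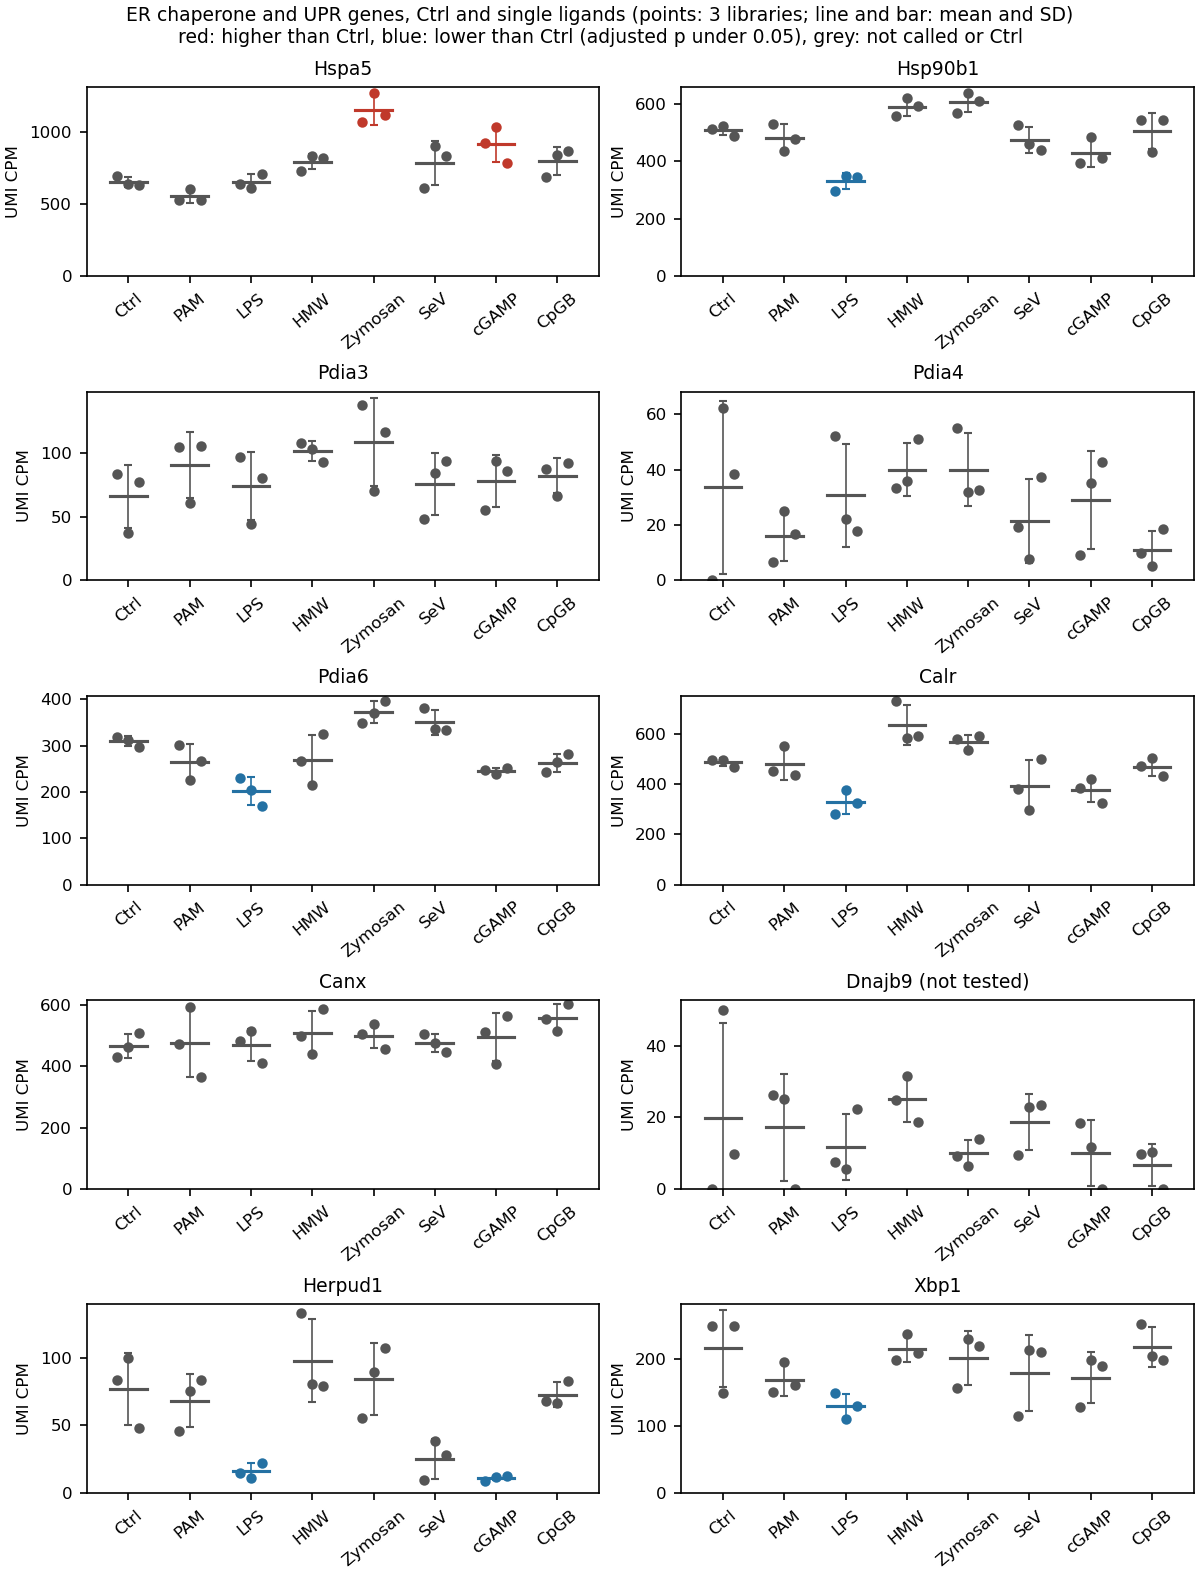
Level of each gene (CPM) in the 3 libraries of Ctrl and of each single ligand; points are libraries, lines means and bars SD. Hspa5 stands highest with Zymosan (1154 CPM), and Herpud1 is near 11 to 25 CPM with LPS, SeV and cGAMP against 77.0 CPM in Ctrl.

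Since the Ctrl libraries were shallow, each ligand was also assessed by adding it to every group that lacked it and still allowed the sum: 22 matched comparisons (1 on Ctrl, 6 on single ligands, 15 on pairs). The fitted value is the mean of those 22 differences between fitted group levels. Single differences and counts of comparisons use log2 CPM with a prior count of 2, and both scales part at low counts. On Ctrl, Pdia4 with LPS was at 0.18 by single difference and at -0.30 by fit. Groups enter the contrasts of several ligands, so the 7 values are not independent. Over 63 such tests, members were called higher 7 times and lower 21 times, against a background of 21.1% and 19.2% of genes.

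LPS lowered all 9 tested members, where 29.3% of all genes were called lower. The median member change was -0.29 and that of all genes -0.02. Herpud1 fell most, by 1.03 (SE 0.15, edgeR adjusted p = 6.55e-10), from a mean of 48.9 CPM without LPS to 20.2 CPM with it, and was lower in 18 of 22 comparisons. Hsp90b1 fell by 0.31 (SE 0.04, edgeR adjusted p = 1.07e-14) and was lower in 20 of 22, as was Calr, which fell by 0.29. Pdia4 fell by 0.41, Xbp1 by 0.29, Pdia6 by 0.26, Pdia3 by 0.24 and Canx by 0.19. Hspa5 fell least, by 0.09 (SE 0.03, edgeR adjusted p = 0.00452), and was lower in 14 of 22. All 9 stayed below 0 under RLE, unscaled library size and DESeq2 scaling, but with no filter on low counts the calls of Hspa5, Pdia3 and Pdia4 were lost (6 of 9 called lower). Those of Pdia3 and Pdia4 were also lost without replicate 2 and without replicate 3 in turn. The summed macrophage markers moved along with LPS, from a median of 2390 to 1874 CPM over the same groups, and their part in these values was not tested.

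Zymosan raised Hspa5 in 22 of 22 comparisons, the only tested member and ligand for which all 22 had the same sign. The mean was 774.2 CPM without Zymosan and 1048 CPM with it, a log2 change of 0.43 (SE 0.03, edgeR adjusted p = 9.51e-35), and 21.3% of all genes were called higher. The single differences of Hspa5 ran from 0.17, when Zymosan was added to LPS + cGAMP, to 0.80 when it was added to Ctrl. Herpud1 rose by 0.42 (SE 0.13, edgeR adjusted p = 0.0075), higher in 15 of 22, and this call was lost without replicate 1 (adjusted p = 0.0524). Hsp90b1 rose by 0.10 (SE 0.04, edgeR adjusted p = 0.022) and was higher in 13 of 22; with every library thinned to 46564 UMIs its value was -0.0056, and the call was lost in 5 of 9 alternatives. Pdia3, Pdia4, Pdia6, Calr, Canx and Xbp1 did not pass the test, with values between -0.09 and 0.09. Without replicate 3 Pdia4 was at 0.56 and passed (edgeR adjusted p = 0.0184), as did Pdia6 at 0.13 without replicate 1 (edgeR adjusted p = 0.023). With library size alone Canx (-0.11) and Xbp1 (-0.14) were called lower. Over the same groups the macrophage sum was at a median of 2021 CPM with Zymosan and 2276 without it. The plasma and B cell sum was at 161.0 CPM with it and 110.4 without it. The part of these sums in the values was not tested.

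cGAMP moved Hspa5 and other members in opposite directions. Hspa5 rose by 0.24 (SE 0.03, edgeR adjusted p = 1.69e-14), from 809.3 to 954 CPM, and was higher in 20 of 22 comparisons, where 28.2% of genes were called higher. That call held in all 9 alternatives, but its size was 0.11 with library size alone. Herpud1 fell by 1.24 (SE 0.15, edgeR adjusted p = 5.08e-14), from 50.4 to 18.5 CPM, lower in 20 of 22. Pdia3 fell by 0.26, Xbp1 by 0.20, Calr by 0.15 and Canx by 0.12, which makes 5 members lower where 29.7% of genes were. Canx lost its call without replicate 1 (edgeR adjusted p = 0.0824). Hsp90b1 was also called lower with RLE factors, library size alone, DESeq2 and thinning (-0.11 to -0.21), and Pdia6 with library size alone and thinning, so that 6 members were lower with RLE or DESeq2 and 7 with library size alone. The 2 differences of Herpud1 that were not negative were those on LPS (0.08) and on LPS + SeV (0.23). The macrophage sum was at a median of 1878 CPM with cGAMP and 2249 without it over the same groups, and its part in these values was not tested.

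SeV lowered Herpud1 by 0.65 (SE 0.15, edgeR adjusted p = 0.000132), Canx by 0.16 and Hsp90b1 by 0.13, or 3 of 9 members against 16.7% of genes. The call of Hsp90b1 was lost with no filter (edgeR adjusted p = 0.0523) and without replicate 2 (edgeR adjusted p = 0.0805), and with library size alone 6 members were lower, Pdia6, Calr and Xbp1 being added. Hspa5 was called higher by 0.07 against a background of 20.6%, but that call was lost in 7 of 9 alternatives, with adjusted p up to 0.984. HMW, which called 7.94% of all genes higher, raised Calr by 0.24 (SE 0.04, edgeR adjusted p = 9.18e-08), from 427.3 to 506.7 CPM and in 20 of 22 comparisons, and the call held in all 9 alternatives. It also raised Hspa5 by 0.09 and lowered Canx by 0.12 (2.1% of genes were lower); those calls were lost in 6 and 4 of 9 alternatives, without replicate 1 and without replicate 3 among them. PAM lowered Hsp90b1 by 0.10 and Pdia4 by 0.34 (18.7% of genes), calls lost in 3 of 9 and 4 of 8 alternatives. The PAM count depended on the scaling: 5 of 9 members were lower with RLE factors and with DESeq2, where Hspa5 (-0.08), Pdia6 (-0.12) and Xbp1 (-0.15) were added, 8 with library size alone, and 0 with no filter or without replicate 3. CpGB lowered Pdia4 by 0.35 (17.7% of genes), at an adjusted p of 0.0477 by edgeR that held in 2 of 8 alternatives. With CpGB, Calr was called lower with RLE factors (-0.10), with library size alone (-0.15) and without replicate 2 (-0.14), and with library size alone 4 members were lower. In the fit without the low-count filter, Dnajb9 was lower with CpGB (log2 -0.68, edgeR adjusted p = 0.0273) and passed for no other ligand.

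**Figure D2:**
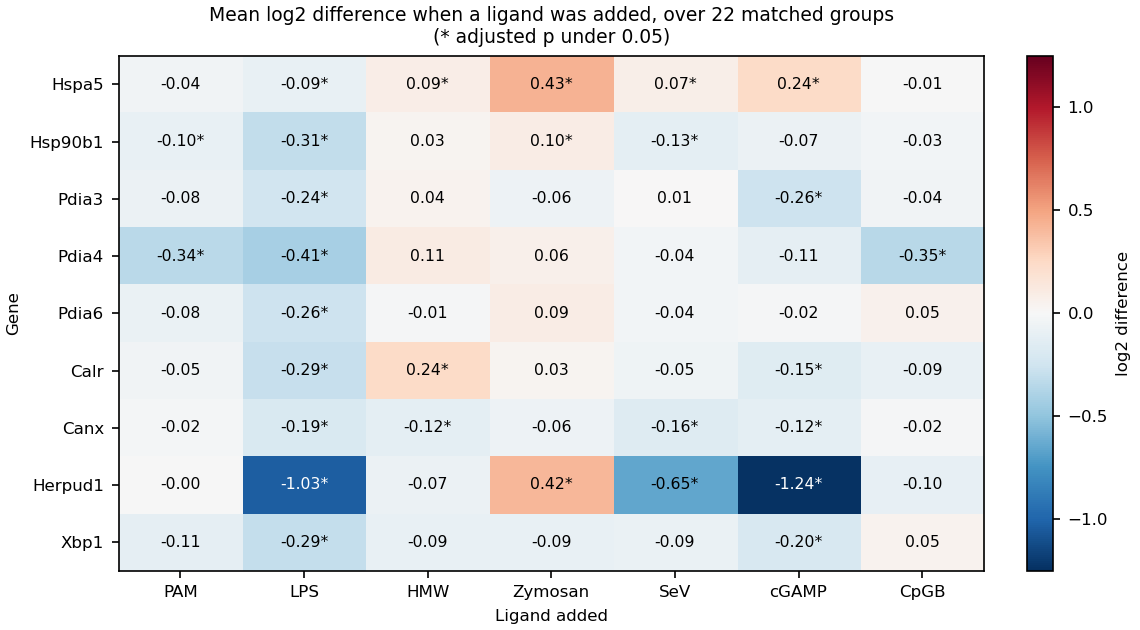
Mean log2 difference of each tested gene (rows) when a ligand (columns) was added, over 22 matched comparisons; stars mark an adjusted p under 0.05. The LPS column is negative in all 9 rows, from -0.09 for Hspa5 to -1.03 for Herpud1, and the Hspa5 row is positive with Zymosan (0.43) and cGAMP (0.24).

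The matched differences varied with the number of ligands already present, and not in 1 way. Adding cGAMP to Ctrl changed Herpud1 by -1.91, adding it to single ligands by -1.18 on average and adding it to pairs by -0.77. For LPS the same 3 values of Herpud1 were -1.64, -0.94 and -0.69, and for SeV -1.30, -0.71 and -0.48. Hspa5 with Zymosan went from 0.80 on Ctrl to 0.47 on single ligands and 0.39 on pairs, and with cGAMP from 0.47 to 0.30 and 0.21. Other series did not shrink: Herpud1 with Zymosan went from 0.12 to 0.26 and 0.28, and Hspa5 with LPS from -0.0025 to -0.12 and -0.08. These steps are descriptions without a test of their difference, and the first value in each series rests on the same 3 Ctrl libraries. They use a prior count of 2, which draws differences at low counts toward 0. Herpud1 averaged 5.81 UMIs per library, and its fitted change with cGAMP on Ctrl was -2.65, against -1.91 here. The part of the prior count in the shrinking steps was not tested.

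**Figure D3:**
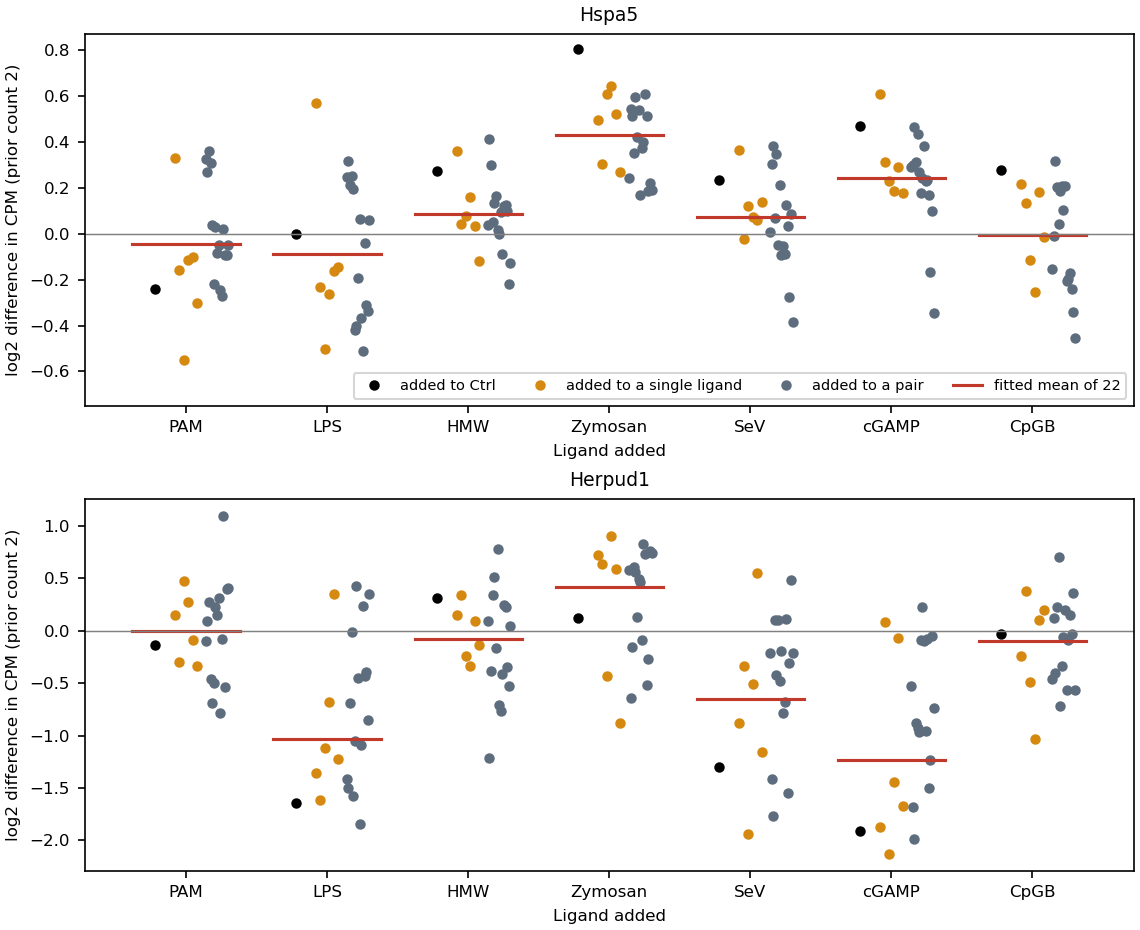
The 22 matched log2 differences of Hspa5 and Herpud1 for each ligand, split by what the ligand was added to; red lines are the fitted means. All 22 points of Hspa5 with Zymosan lie above 0, and those of Herpud1 with LPS, SeV and cGAMP lie mostly below 0.

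In pairs and triplets the calls against Ctrl fell mainly on Hspa5 and Herpud1. Among 189 tests with pairs, 11 were higher and 18 lower (background 15.9% and 11.2% of genes); all 11 higher calls were of Hspa5, and the lower calls were 11 of Herpud1, 3 each of Hsp90b1 and Pdia6 and 1 of Xbp1. Among 315 tests with triplets, 23 were higher and 36 lower (background 18.1% and 13.2%); all 23 higher calls were of Hspa5, and the lower ones were 22 of Herpud1, 6 of Xbp1, 4 of Hsp90b1 and 2 each of Calr and Pdia6. Canx, Pdia3 and Pdia4 passed no test in a pair or triplet. In each of the 11 pairs and 23 triplets where Hspa5 was called, all 3 libraries lay above all 3 Ctrl libraries. These contrasts share the Ctrl libraries, so they are not independent.

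The split between higher and lower calls depended on the scaling and on the libraries used. With libraries left out, lower calls ran from 3 to 12 in pairs and from 11 to 24 in triplets. With RLE size factors the median of all genes moved by -0.15 in pairs and -0.17 in triplets, and the calls became 6 higher and 35 lower in pairs and 15 higher and 83 lower in triplets. With library size alone it moved by -0.33 and -0.37, and the calls became 3 and 64 in pairs and 4 and 156 in triplets. With library size alone, 27 of 29 pair calls and 54 of 59 triplet calls kept their sign. Measured from the moved median all 29 and all 59 did. That measure takes out a shift shared by all genes and so nearly restores the first values, which makes it no test.

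Hspa5 was highest with HMW + Zymosan + cGAMP, at 1547, 1352 and 1393 CPM, a log2 change of 1.13 against Ctrl (SE 0.14, edgeR adjusted p = 7.37e-12). Next came Zymosan + cGAMP at 1322, 1293 and 1316 CPM (log2 1.01, SE 0.14, edgeR adjusted p = 1.02e-09). All of the libraries of both groups were above every library of Zymosan alone, whose highest stood at 1273 CPM. Each of the 10 groups with the highest Hspa5 held Zymosan and none held LPS. All 15 triplets with Zymosan were called higher, but only 4 of its 6 pairs, since PAM + Zymosan (779, 795.5 and 769.1 CPM) and LPS + Zymosan (775.7, 821.4 and 826.7 CPM) were not, though all of their libraries lay above Ctrl (edgeR adjusted p = 0.286 and 0.1).

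Herpud1 was highest with PAM + Zymosan, at 115.8, 147.3 and 94.9 CPM, and lowest with LPS + HMW + cGAMP, at 11.2, 9.02 and 0 CPM. The latter group held 4 UMIs in all and fell by 3.32 on the log2 scale (SE 0.74, pooled ratio to Ctrl 0.0918, 95% exact interval 0.0227 to 0.276). Groups were also counted by how many of LPS, SeV and cGAMP they held, a split chosen after the values were seen. Without any of the 3, the median group mean over 15 groups was 72.4 CPM (33.9 to 119.3), with 1 of them 24.2 CPM over 33 groups (9.70 to 53.7), with 2 of them 15.3 CPM over 15 groups (6.73 to 29.6), and in the 1 group with all 3 the mean was 13.8 CPM. For Hspa5 the same values were 794.6, 877.2, 889.4 and 765.8 CPM, with no steady order.

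**Figure D4:**
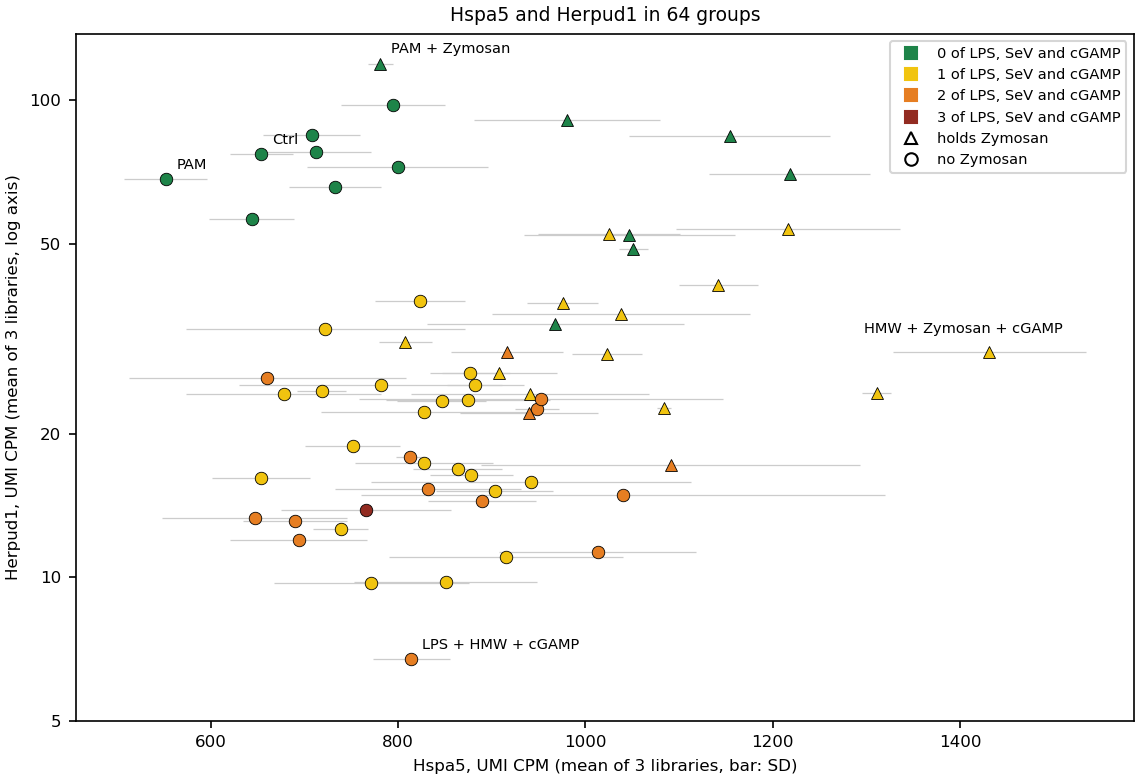
Mean level of Hspa5 (bar: SD of 3 libraries) against mean level of Herpud1 (log axis) in 64 groups, coloured by how many of LPS, SeV and cGAMP a group held; triangles hold Zymosan. Groups without LPS, SeV or cGAMP lie at 33.9 CPM of Herpud1 or more, and the 10 highest groups of Hspa5 are all triangles.

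Of the other members, Pdia3 and Pdia4 had ratios of highest to lowest group mean of 3.04 and 4.66, on few UMIs. Xbp1 was highest with Zymosan + SeV (266.9 CPM, SD 133.7, n = 3, pulled up by a library at 417.5) and lowest with LPS + HMW + Zymosan (110.3 CPM, SD 20.6, n = 3), where it fell by 0.97 (SE 0.27, edgeR adjusted p = 0.00214), a call lost in 4 of 12 alternatives. Calr peaked with HMW + Zymosan (655.6 CPM) and was lowest with LPS + Zymosan + SeV (319.1 CPM). Hsp90b1 and Pdia6 both peaked with Zymosan alone (607.2 and 372.5 CPM) and were lowest with LPS + HMW + SeV (327.2 CPM) and LPS + Zymosan (187.1 CPM). The highest group mean of Canx was 1.65 times its lowest, against 2.59 times for Hspa5 and 17.7 times for Herpud1.

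Across the 64 group means, Hsp90b1 correlated with Calr (Pearson r = 0.638), Pdia6 (0.637) and Herpud1 (0.572). Hspa5 correlated with Hsp90b1 at 0.416 and with Pdia6 at 0.315, but with Herpud1 only at 0.0337 and with Xbp1 at -0.00804. The groups share ligands and were scaled together, so these values describe the groups and carry no p. The correlation of a member with the log2 total count of the groups lay between -0.286 and 0.112.

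A pair of ligands could act on a gene by more or less than the sum of both log2 effects. Of 189 member tests of this interaction, 1 was higher and 0 were lower, against 1.08% and 3.5% of all genes. It was that of Hspa5 with PAM + LPS. The PAM + LPS libraries stood at 710.7, 844.1 and 928.8 CPM, all above the 3 PAM libraries; the lowest of them lay just under the highest LPS library (711.4 CPM). The interaction was 0.60 (SE 0.21, edgeR adjusted p = 0.0463) and lost its call in 8 of 12 alternatives. No member passed as above both single ligands of a pair or as below both (0 calls in edgeR and in DESeq2; at an unadjusted p under 0.05, 1 of 189 above and 6 below), where 0.876% and 0.0323% of genes did. The same held for triplets against their 3 pairs (0 calls in both tools; unadjusted, 2 of 315 above and 4 below; background 0.0369% and 0.00121%).

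Other genes of ER folding and quality control were followed through lists by the matched comparisons. The shares of all genes called higher and lower, against which the list counts are to be read, were 21.2% and 18.7% with PAM, 29.6% and 29.3% with LPS, 7.94% and 2.1% with HMW and 21.3% and 20.4% with Zymosan. They were 20.6% and 16.7% with SeV, 28.2% and 29.7% with cGAMP and 19.0% and 17.7% with CpGB. With LPS, 1 of 9 other ER chaperones and co-chaperones was higher and 5 were lower (median -0.36), 0 and 6 of 8 other ER isomerases (-0.34), 0 and 4 of 12 degradation genes (-0.05) and 2 and 14 of 23 translocon, signal peptidase and glycosylation genes (-0.18), against a median of -0.02 for all genes. Creld2, an ER-resident target of the unfolded protein response, fell by 0.81 (edgeR adjusted p = 1.86e-11) and Sdf2l1, a partner of Hspa5 and its J proteins, by 0.60. Erp29 fell by 0.74, the isomerase Txndc5 by 0.56, Rpn1, a subunit of the enzyme that attaches glycans, by 0.57, the folding sensor Uggt1 by 0.55 and the channel component Derl2 by 0.35. Dnajc1, an ER membrane J protein, went the other way and rose by 1.07 with LPS (22 of 22 comparisons) and by 0.94 with PAM.

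With Zymosan, where 21.3% of all genes were higher and 20.4% lower, the counts were 1 higher and 0 lower of 9 chaperones, 2 and 1 of 8 isomerases, 2 and 2 of 12 degradation genes and 2 and 2 of 23 translocon genes. Creld2 rose by 0.46 (edgeR adjusted p = 6.32e-05) and Stt3b, a catalytic subunit of glycan transfer, by 0.47. Erp29 fell by 0.53. Ero1l, the oxidase that recharges the disulfide isomerases, rose by 1.79 (SE 0.08, edgeR adjusted p = 2.3e-59), in 22 of 22 comparisons. It was at 41.5, 0 and 38.4 CPM in Ctrl and at 441.7, 441.5 and 391.9 CPM with Zymosan alone.

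With cGAMP, where 28.2% of all genes were higher and 29.7% lower, 0 of 9 chaperones were higher and 4 lower, and the counts were 0 and 5 of 8 isomerases, 1 and 4 of 12 degradation genes and 3 and 10 of 23 translocon genes; the share of lower degradation genes is near that of all genes. The 1 degradation gene that rose was Herpud2, a relative of Herpud1, by 1.75 (SE 0.11, edgeR adjusted p = 1.13e-38) in 22 of 22 comparisons, from a mean of 27.8 to 91.0 CPM, while Herpud1 fell. Herpud2 was at 27.7, 24.9 and 28.8 CPM in Ctrl and at 45.9, 140.2 and 153.4 CPM with cGAMP alone. Derl2 fell by 0.44 with cGAMP, Rpn1 by 0.49, Erp29 by 0.56 and Sdf2l1 by 0.36.

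The Atf4 arm, the genes that Perk and other eIF2 alpha kinases raise through the transcription factor Atf4, was counted in the same way. Of its 16 genes 7 were tested: Atf4, Ppp1r15a, Atf3, Nupr1, Aars, Slc7a11 and Slc3a2. Ddit3, Trib3, Chac1, Asns, Sesn2, Ddit4, Psat1, Phgdh and Vldlr did not pass the filter, so the counts cover part of the arm. With Zymosan 6 were higher and 0 lower (median 0.49, 21.3% of all genes higher), with PAM 4 and 0 (0.34, 21.2%). With cGAMP they were 4 and 1 (0.25, 28.2%) and with LPS 4 and 1 (0.17, 29.6%). With CpGB they were 4 and 0 (0.15, 19.0%), with SeV 2 and 2 (-0.01, 20.6%) and with HMW 1 and 0 (0.04, 7.94%). The LPS median is the value of Slc7a11, which was called higher but lay higher in 8 of 22 comparisons, at a mean of 429.8 CPM with LPS and 506.6 CPM without it; with library size alone its value was 0.04 and not called (edgeR adjusted p = 0.489). Ppp1r15a, which codes for the phosphatase subunit Gadd34 that reverses eIF2 alpha phosphorylation, rose by 1.56 with cGAMP (edgeR adjusted p = 2.03e-62), by 0.74 with SeV and by 0.71 with Zymosan. Slc7a11, a cystine transporter, rose by 1.17 with PAM and fell by 0.67 with cGAMP, and the stress gene Nupr1 rose by 0.80 with LPS. Of the 8 sensors and ER stress transcription factors only Atf6 and Mbtps1, the protease that activates Atf6, were abundant enough to test. Atf6 fell by 0.37 with HMW (edgeR adjusted p = 0.0287), and Mbtps1 fell by 0.41 with LPS and by 0.42 with cGAMP, while the other 11 tests of this list did not pass. Each of these calls was lost under an alternative: Atf6 with no filter (edgeR adjusted p = 0.153), Mbtps1 with LPS under no filter (0.0516) and without replicate 3 (0.16), and Mbtps1 with cGAMP without replicate 1, where it was at -0.19 (edgeR adjusted p = 0.392).

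Heat shock proteins of the cytosol, which are under separate control, gave 5 higher and 0 lower of 9 with PAM and with CpGB. There 21.2% and 19.0% of all genes were higher. They gave 4 and 0 with HMW (7.94% of all genes higher) and 3 and 0 with Zymosan (21.3%). With LPS they gave 4 and 2 (29.6% higher and 29.3% lower), with cGAMP 3 and 3 (28.2% and 29.7%) and with SeV 3 and 2 (20.6% and 16.7%). The 3 of 9 in each direction with cGAMP are near the shares of all genes. Hsp90aa1, the inducible cytosolic Hsp90, rose by 0.77 with Zymosan (edgeR adjusted p = 9.29e-41), against 0.10 for its ER relative Hsp90b1. Hspa1a, the inducible cytosolic Hsp70, rose by 1.04 with LPS and by 0.75 with cGAMP, and Hsph1, its exchange factor, fell by 0.67 with cGAMP.

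**Figure D5:**
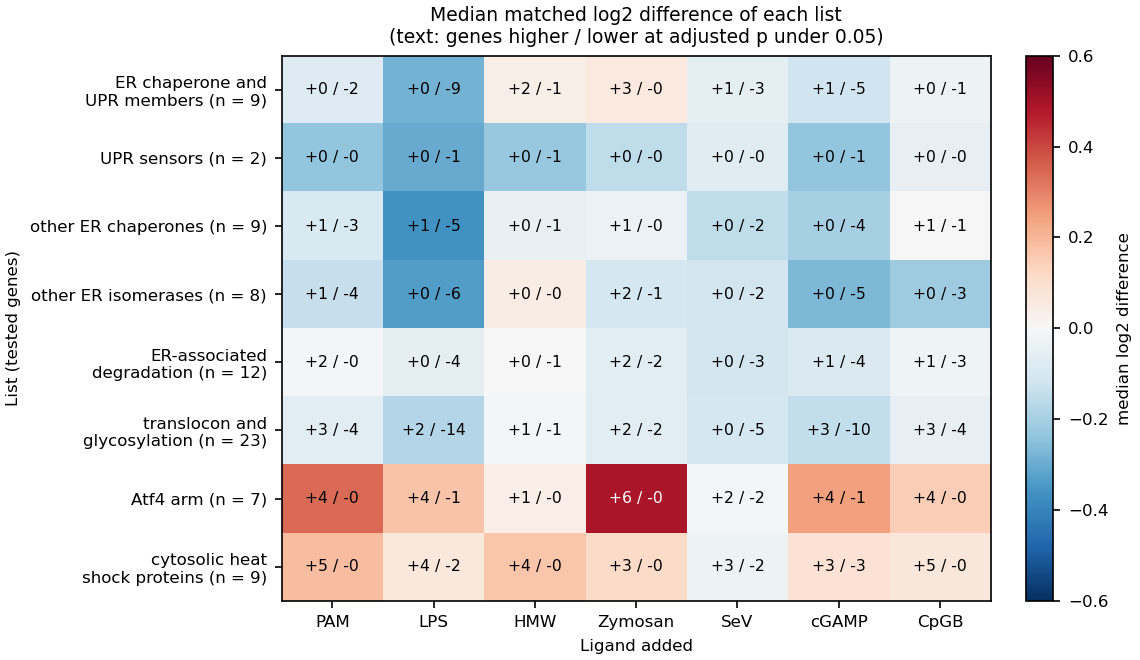
Median matched log2 difference of each gene list (rows) for each ligand (columns); the text in a cell gives the numbers of tested genes higher and lower at an adjusted p under 0.05. The member row holds 0 higher and 9 lower with LPS, and the Atf4 row 6 higher and 0 lower with Zymosan.

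Likeness was measured against the 2622 genes that averaged 50 CPM or more. The profile over 64 groups most like the average of the 9 tested members was that of Cat (r = 0.851), followed by Clec4n (0.843), the isomerase P4hb (0.837), Ftl1 (0.826) and Cyb5 (0.821). Creg1, Cd36, Taldo1, Slc48a1 and Slc43a2 followed at 0.789 to 0.81. Hspa5 alone was most like Plk2 (0.812), Gp49a (0.794), Hk2 (0.773), Hilpda (0.77) and H2-K2 (0.765). For Xbp1 the nearest was Manf, an ER-resident target of the unfolded protein response, at 0.629, with the others at 0.529 to 0.557. Likeness to Herpud1, added after the data were seen, was highest for Alas1 (0.832), Slc11a1 (0.821) and Tuba1c (0.811). These are descriptions over groups that share ligands, without a test.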

How the data were processed

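The authors deposited whole-number UMI counts per gene symbol for every library, without normalization; BWA 0.7.15 and the mm10 build are named in the submitters' processing notes. The rules for collapsing UMIs, for strand and for reads that match several genes are not given in the sources used here, so genes that overlap or resemble others carry an uncertainty; overlapping genes on the opposite strand of Hsp90b1 (1810014B01Rik) and Pdia3 (Catsper2) held 7 and 28 UMIs in all. The analysis used edgeR 4.0.16 (R 4.3.3): filterByExpr by group (4720 genes kept, 95.7% of UMIs), TMM factors, 1 coefficient per group over all libraries (128 residual degrees of freedom) and quasi-likelihood F-tests, with Benjamini-Hochberg adjustment over all tested genes within a contrast. Calls use an adjusted p under 0.05, whatever the fold. Matched differences of single groups use log2 CPM with a prior count of 2. Alternatives were RLE factors, library size alone, no filter, DESeq2 1.42.0, thinning, a replicate block, omitted libraries and, for single ligands, fits of the ligand and Ctrl libraries alone. The scripts were tested on simulated data. Named genes were the 10 members, for each list up to 3 genes with the largest called matched change, and the genes most alike by Pearson r over 64 group means. Members and lists were chosen with earlier results of these data known. 1 marker gene is not reported here.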

Additional observations from a re-analysis of the deposited data

Results flagged for a closer look

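The response of Hspa5 to PAM and LPS together differed from the sum of their separate log2 effects by 0.60 (0.5953, SE 0.2059, edgeR adjusted p = 0.0463), which is a test of the difference itself. That was 1 call in 189 member tests, where 1.08% of all genes were called higher. Group means were 654.1 CPM in Ctrl, 552 with PAM, 653.7 with LPS and 827.9 with both. The value was 0.68 with RLE factors (adjusted p = 0.0153), 0.68 with DESeq2 (0.0193) and 0.60 with the replicate block (0.0357). It was 0.41 without the filter on low counts (adjusted p = 0.713) and 0.30 after thinning (0.661), and lay between 0.46 and 0.55 with a replicate number or a Ctrl library left out, at adjusted p of 0.141 to 0.354.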

How the results depend on the processing

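Call counts of members are given as higher and lower. Thinned counts left 6 of the 9 members to test, without Herpud1, Pdia3 and Pdia4. Single ligands gave 2 and 6; higher calls were 1 with RLE factors, library size alone, DESeq2 and thinning, and lower calls were 10 with library size alone and 2 with no filter. Pairs gave 11 and 18; they gave 6 and 35 with RLE, 3 and 64 with library size alone, 5 and 34 with DESeq2, 3 higher with thinning and 6 lower with no filter. Triplets gave 23 and 36; they gave 15 and 83 with RLE, 4 and 156 with library size alone, 15 and 72 with DESeq2, 2 higher with thinning and 13 lower with no filter. Matched addition gave 7 and 21; higher calls were 4 with RLE, library size alone and DESeq2 and 3 with thinning, and lower calls were 37 with library size alone and 13 with no filter. Between single ligands the counts were 21 and 25, with 11 higher under no filter and 9 and 12 under thinning. Interactions gave 1 higher, 0 with no filter and 2 with RLE, library size alone, DESeq2 and thinning, and 1 pair fell below both single ligands with library size alone. The median of all genes moved by -0.12 (RLE) and -0.19 (library size alone) in single ligands and by -0.02 and -0.07 in matched additions.

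With libraries left out, single-ligand calls ran from 1 to 4 higher and 0 to 5 lower, pairs from 6 to 13 and 3 to 12, triplets from 15 to 27 and 11 to 24, matched additions from 5 to 7 and 16 to 18, and comparisons between ligands from 9 to 19 and 13 to 25; interactions gave 0. Among called single-ligand and matched values, 1 changed sign: Hsp90b1 with added Zymosan, at -0.0056 after thinning; the cause was not tested. With library size alone 27 of 29 pair calls and 54 of 59 triplet calls kept their sign, and values without a call also crossed 0. Without replicate 2 of all groups 0 single-ligand calls were lower, and without replicate 1 of all groups or PAM replicate 1 there were 4 higher.

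Replicate numbers recur in all groups, but the deviations of same-numbered libraries of different groups were mostly uncorrelated pair by pair (median r = 0.00815; 0.116% of 6048 pairs above 0.1), so the numbers were not taken to pair them. Even so, 167 libraries (87.0%) correlated best with their own number of the 3, a hint from the data and not from the design. With the replicate block the counts were 2 and 6 for single ligands, 11 and 20 for pairs, 23 and 38 for triplets, 7 and 20 for matched additions, 21 and 25 between ligands and 1 for interactions, and the call of Pdia4 with added CpGB was lost. Libraries of a group differed beyond sampling noise (chi-square per degree of freedom 1.10 to 5.35). Depth limits Herpud1, Pdia4 and Dnajb9 most.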
